A study of Rattus norvegicus with 9 samples.

Results

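The signals of 10 antioxidant and NRF2 target enzymes were followed in the livers of diabetic rats with and without chronic stress. The genes were Nqo1, Hmox1, Gclc, Gclm, Txnrd1, Srxn1, Sod1, Sod2, Cat and Gpx1. They were chosen by symbol, and all 14 probe sets that the array annotation assigns to them were taken, out of 31042 probe sets and 14217 genes named by a single symbol. Gclc and Txnrd1 had 2 probe sets each and Srxn1 had 3, and the other genes had 1. Of the 14 probe sets, 13 passed the filter on low signals and were tested. The exception was a probe set of Srxn1 with signals between 4.64 and 29.3, and each of the 10 genes kept at least 1 tested probe set.

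The animals were male Goto-Kakizaki (GK) rats, a strain that develops diabetes without being obese. They arrived at 5 weeks of age and were housed for 7 weeks until hyperglycaemia had appeared. The depression model was chronic unpredicted mild stress (CUMS), in which singly caged rats met 1 stressor a day, such as swimming in hot or cold water, restraint or a tilted cage, for 8 weeks. CUMS 1–3 carry the symptom label Major Depression, CUMS 4–6 the label Mild Depression and control 1–3, kept for the same time with no stressor, the label undepression, with 3 livers per group and 1 array per rat. Every rat, controls included, received repaglinide, an insulin secretagogue, by gavage at 6 mg/kg before the liver was taken, so no liver without the drug was measured. The labels do not say how major and mild were told apart, and the sources used here do not say how the control rats were caged.

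NRF2, the product of Nfe2l2, is a transcription factor that KEAP1 holds in the cytoplasm and passes to a CUL3 ubiquitin ligase for breakdown. Oxidants and electrophiles modify cysteines of KEAP1, NRF2 then reaches the nucleus, pairs with a small MAF protein and binds antioxidant response elements, while BACH1 competes for the same elements. Nqo1, Hmox1, Gclc, Gclm, Txnrd1 and Srxn1 are textbook targets. Sod1, Sod2, Cat and Gpx1 are the basal enzymes that remove superoxide and peroxide, and they are abundant in hepatocytes, which carry out much of the body's drug and peroxisomal oxidation.

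Promoters are shown because the element binds the factor that groups these genes. RefSeq promoter sequences of build GRCr8, running from 250 bases before to 50 bases after the annotated start, were found for 9 of the 10 genes, Hmox1 being the exception. For each gene only the first listed promoter was searched, and any further start was not. The 250 upstream bases used for Txnrd1, at chr7:22764852-22765101, lie within the annotated gene at 22717620 to 22802553. Those used for Gclc, at chr8:87510226-87510475, lie partly within the gene annotated from 87510251. Those used for Sod1, at chr11:42942573-42942822, lie partly within the gene annotated from 42942742. The core of the antioxidant response element was searched on both strands as TGACNNNGC. It was present in 2 of the 9 promoters, those of Gclm and Sod2, and in 12.1% of all 33469 promoters of the same length. Both matches lay on the strand opposite to the gene, in Gclm at positions -172 to -164 and in Sod2 at -35 to -27 from the start, so the capitals below mark the core in reverse complement. The Gclm window lies at chr2:213031947-213031987 on the plus strand and the Sod2 window at chr1:50050179-50050219 on the minus strand, both upstream of the annotated gene.
Gclm window: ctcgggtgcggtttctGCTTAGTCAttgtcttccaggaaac
Sod2 window: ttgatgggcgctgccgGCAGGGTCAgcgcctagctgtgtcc
The related AP-1 site, TGACTCA, reads as TGAGTCA on the other strand and is contained in some forms of the element. It occurred at 2 places in the Srxn1 promoter, at -62 to -56 and at -5 to 2, in no other of the 9 promoters, and in 4.63% of all promoters. These matches describe letters within short windows and say nothing of binding in these livers. The annotation places Nqo1 and Hmox1 on chromosome 19, Srxn1 and Cat on 3, Gclc and Gpx1 on 8, Gclm on 2, Txnrd1 on 7, Sod1 on 11 and Sod2 on 1.

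The arrays had been scaled to a like mean, so they differed little in overall signal, with medians of 108 to 123 in the 6 CUMS rats and 115, 115 and 134 in control 1, 2 and 3. Control 3 stood apart. Its median correlation with the other arrays was 0.951, against 0.965 to 0.972 for the other 8 arrays. The 3′ to 5′ signal ratio of beta-actin, which is higher in degraded RNA, was 3.18 to 5.23 in CUMS rats, highest in CUMS 2 and CUMS 4, and 2.51 to 3.66 in control rats. All 11 hepatocyte markers that were tested, Alb among them, were bright in every rat, with the lowest signal of any of them at 7022 for Hnf4a in control 3. Because whole liver was measured, fewer cells of a type and less RNA per cell cannot be told apart.

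No member differed between stressed and control livers at an adjusted p under 0.05, and neither did any other probe set in any of the 4 comparisons (0% of 18625 in each, limma with Benjamini-Hochberg adjustment). At an unadjusted p under 0.05, 1 of the 13 member probe sets was higher and 0 were lower in CUMS 1–3 than in control, where 6.76% of all probe sets passed in either direction. The member was Gclc. Of the 13, 0 passed in CUMS 4–6 against control (6.28% of all), 0 in all CUMS against control (7.93% of all) and 0 in CUMS 1–3 against CUMS 4–6 (2.85% of all). The study's own thresholds ask for a p under 0.05 without adjustment, from the analysis of variance that its methods name, and a ratio that is 1.5 or more, or 0.5 or less. By these 0 members passed in each comparison, against 1.96%, 2.06%, 2.44% and 1.64% of all probe sets in the order CUMS 1–3, CUMS 4–6 and all CUMS against control, and CUMS 1–3 against CUMS 4–6. The study compared a single CUMS group with control, without the split by label. Its selection was not reproduced here, since 758 probe sets passed in all CUMS against control, far more than the genes it reported. The 4 comparisons share rats, and the same control livers serve in 3 of them, so the comparisons are not independent.

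**Figure D1:**
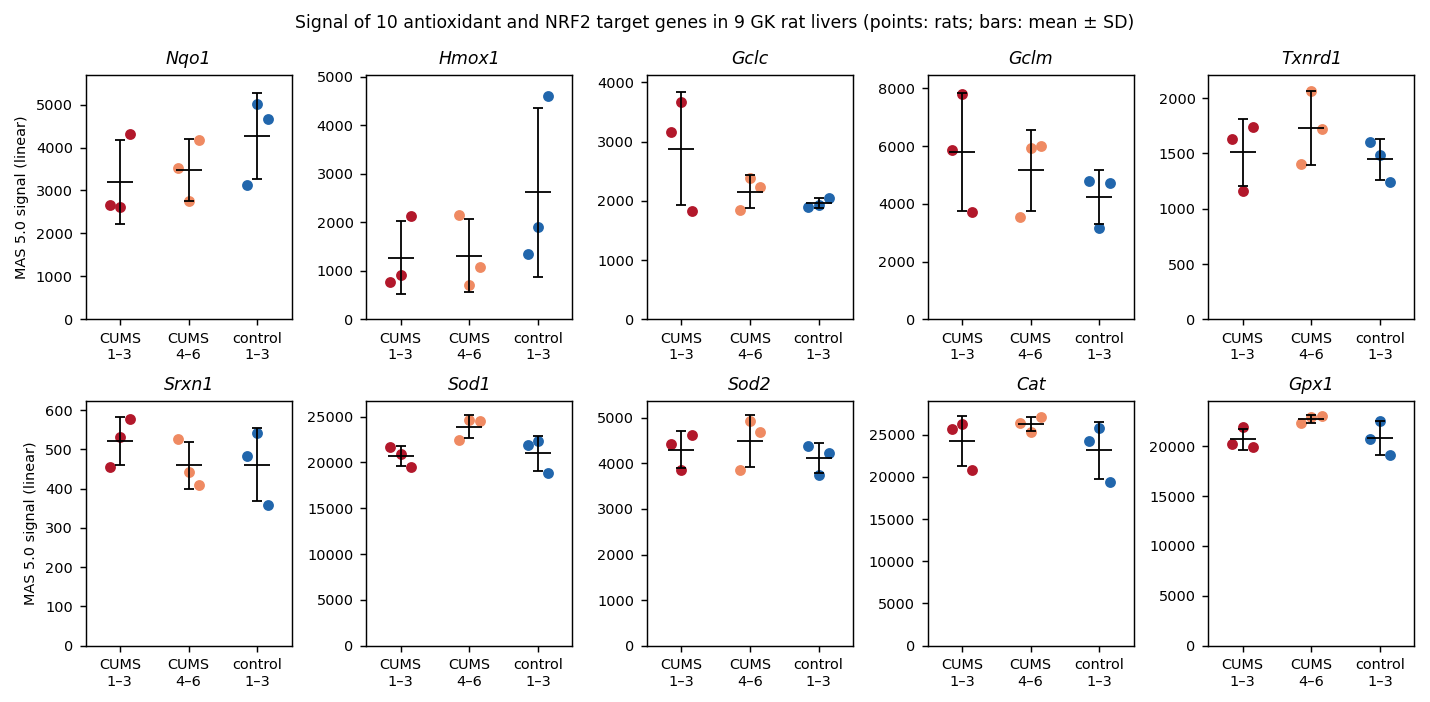
Linear MAS 5.0 signal of the 10 genes, 1 panel per gene, each by its probe set with the highest mean signal. Points are single rats and bars are mean ± SD of 3 rats, with CUMS 1–3 (Major Depression), CUMS 4–6 (Mild Depression) and control 1–3 from left to right. Hmox1 spans 704 to 4604 over the 9 rats, while Sod1, Sod2, Cat and Gpx1 stay within narrow bands.

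Heme oxygenase 1, the product of Hmox1, opens heme to biliverdin, carbon monoxide and iron and is made in the liver largely by Kupffer cells. Its signal was 762, 914 and 2137 in CUMS 1, 2 and 3, and 2160, 704 and 1084 in CUMS 4, 5 and 6, against 1338, 1909 and 4604 in control 1, 2 and 3. The groups overlapped, since CUMS 3 and CUMS 4 lay above 2 of the 3 control rats, and control 3 alone held the highest value. The group means were 1271 ± 754 in CUMS 1–3 and 1316 ± 755 in CUMS 4–6, against 2617 ± 1744 in control (SD, n = 3 each). The log2 fold change was -0.99 (SE 0.52) in CUMS 1–3 and -0.95 (SE 0.52) in CUMS 4–6 against control, with limma adjusted p values of 0.765 and 0.805. Over all CUMS rats it was -0.97 (SE 0.45, 95% confidence interval -1.97 to 0.03, adjusted p = 0.637). Without control 3 it was -0.46 (SE 0.44, adjusted p = 0.943). The order of the groups was control, CUMS 4–6 and CUMS 1–3, and no neighbours in that order differed beyond their spread.

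Most markers of Kupffer cells, the resident liver macrophages, had a lower mean in CUMS rats, as Hmox1 did. Of 11 markers tested, 9 had a lower mean and 2 a higher mean in all CUMS than in control. At an unadjusted p under 0.05, 4 were lower and 1 higher (7.93% of all probe sets). The markers with the smallest p were Adgre1 at -0.93, Cd68 at -0.75 and Cd14, which was higher at 0.38 in log2 fold change. Without control 3 these were -0.54, -0.44 and 0.30, and 2 markers were lower and 1 higher at an unadjusted p under 0.05 (5.64% of all probe sets). Their summed signal was 29870 to 38928 in CUMS 1–3 and 31423 to 41922 in CUMS 4–6, against 36441 to 49985 in control. The 3 rats with the lowest sum, CUMS 2, CUMS 5 and CUMS 1, were also the 3 with the lowest Hmox1, and control 3 was highest in both. The other rats did not keep the same order. CUMS 6 and control 1, with sums of 41922 and 43037, had lower Hmox1 than CUMS 3 and CUMS 4, with 38928 and 39509. A large part of the sum in control 3 was Lyz2, at 13208 against 4769 to 5958 in every other rat. Adgre1, Cd68, C1qb, C1qc, Csf1r and Cd163 were also highest in control 3. Clec4f at 4304 and Cd14 at 4534 were lowest there, and C1qa and Cd5l were neither. No marker was at 0, the lowest signal of any being 478 for Adgre1 in CUMS 1. Markers of stellate cells and fibroblasts were lower in mean in all CUMS for 13 of 13 genes, 8 of them at an unadjusted p under 0.05 (7.93% of all probe sets). Their summed signal was 5895 to 6770 in CUMS 1–3 and 7207 to 9118 in CUMS 4–6, against 9504, 9966 and 34159 in control 1, 2 and 3. Lox, Reln and Col14a1 had the smallest p there, at log2 fold changes of -3.26, -0.59 and -0.82. With control 3 left out they were -2.41, -0.55 and -0.66, and 11 of 13 genes were lower, 5 of them at an unadjusted p under 0.05 (5.64% of all probe sets). The part of these cells in the Hmox1 signal was not tested.

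NAD(P)H quinone dehydrogenase 1, from Nqo1, reduces quinones by 2 electrons at once and so avoids semiquinone radicals. Nqo1 measured 2651, 2613 and 4321 in CUMS 1, 2 and 3, and 3515, 2747 and 4184 in CUMS 4, 5 and 6, against 3127, 5016 and 4666 in control 1, 2 and 3. CUMS 1, CUMS 2 and CUMS 5 lay below all control rats, and CUMS 3, CUMS 4 and CUMS 6 lay among them. The mean was 3195 ± 976 in CUMS 1–3 and 3482 ± 719 in CUMS 4–6, against 4269 ± 1005 in control (SD, n = 3 each). The log2 fold change was -0.43 (SE 0.24, adjusted p = 0.769) in CUMS 1–3 and -0.29 (SE 0.24, adjusted p = 0.865) in CUMS 4–6 against control by limma, and no neighbouring groups differed beyond their spread.

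Glutamate-cysteine ligase makes the rate-limiting step of glutathione synthesis and consists of a catalytic subunit, from Gclc, and a modifier subunit, from Gclm. Gclc had signals of 3165, 3662 and 1823 in CUMS 1, 2 and 3 and of 1850, 2389 and 2231 in CUMS 4, 5 and 6, against 1900, 1935 and 2054 in control 1, 2 and 3. CUMS 1 and CUMS 2 lay above all other rats, and CUMS 3 was the lowest of the 9. Its mean was 2883 ± 951 in CUMS 1–3 and 2157 ± 277 in CUMS 4–6, against 1963 ± 80.5 in control (SD, n = 3 each), where the rats lay close together. For Gclc the log2 fold change in CUMS 1–3 against control was 0.49 (SE 0.22, 95% confidence interval 0.01 to 0.98), with a limma p of 0.0446 before adjustment and 0.737 after it. Without CUMS 2 it was 0.29. In CUMS 4–6 against control it was 0.13 (SE 0.22, adjusted p = 0.947), and the direct comparison of CUMS 1–3 with CUMS 4–6 gave 0.37 (SE 0.22, adjusted p = 0.9996).

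The second probe set of Gclc gave the same picture of rats, with 1768, 1648 and 944 in CUMS 1, 2 and 3 and 760, 1239 and 1278 in CUMS 4, 5 and 6, against 934, 962 and 1170 in control 1, 2 and 3. CUMS 1 and CUMS 2 were again the highest. Its log2 fold change in CUMS 1–3 against control was 0.46 (SE 0.26, adjusted p = 0.769 by limma). Over the 9 rats the log2 signals of both probe sets had a Pearson r of 0.92 (exact permutation p = 3.5e-04, Benjamini-Hochberg 0.00106 over 3 within-gene pairs) and a Spearman rho of 0.92 (exact permutation p = 0.00131, adjusted 0.00394). Without the 2 rats farthest from the median r was 0.87, and in such pairs the median is that of the probe set with the higher mean signal.

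Gclm measured 5846, 7808 and 3713 in CUMS 1, 2 and 3, and 3537, 5935 and 6013 in CUMS 4, 5 and 6, against 4792, 3149 and 4731 in control 1, 2 and 3. CUMS 1, 2, 5 and 6 lay above all control rats, while CUMS 3 and CUMS 4 lay among them. The means were 5789 ± 2048 in CUMS 1–3 and 5162 ± 1407 in CUMS 4–6, against 4224 ± 932 in control (SD, n = 3 each), a log2 fold change over all CUMS rats of 0.34 (SE 0.25, adjusted p = 0.779 by limma). It was 0.22 without CUMS 2 and 0.15 without control 2, the lowest of the 9 rats. For both subunits the order was CUMS 1–3, CUMS 4–6 and control, with no neighbours apart by more than their spread.

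CUMS 3 lay among or below the control rats for Gclc and Gclm and among them for Nqo1 and Hmox1. With CUMS 3 left out, 5 of 13 member probe sets reached an unadjusted p under 0.05 in CUMS 1–3 against control, where 7.74% of all probe sets did so in that fit, with log2 fold changes of 0.80 and 0.75 for the probe sets of Gclc, 0.70 for Gclm, -0.67 for Nqo1 and -1.45 for Hmox1. Their limma adjusted p values were 0.442 to 0.625, so none was called. In all CUMS against control without CUMS 3 the same 5 probe sets reached an unadjusted p under 0.05, beside 8.8% of all. In CUMS 1–3 against control 0 member probe sets did so without CUMS 1, CUMS 2, control 2 or control 3, beside 4.39% to 8.03% of all, and 2 did so without control 1, beside 7.25%. Without control 3, the log2 fold changes over all CUMS were -0.28 for Nqo1, 0.34 for Gclc, 0.44 for Gclm and 0.01 for Sod1.

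**Figure D2:**
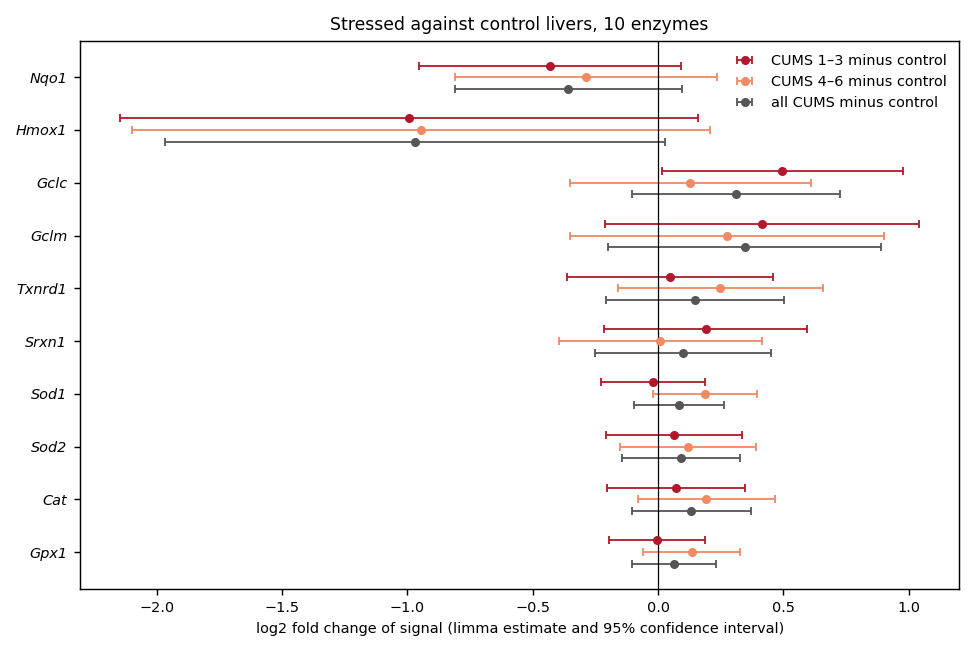
Log2 fold change of the 10 genes, down the page, in CUMS 1–3, CUMS 4–6 and all CUMS minus control, as limma estimates with 95% confidence intervals. The interval of Gclc in CUMS 1–3 is the only 1 of the 30 that leaves out 0, and those of Hmox1 are the widest.

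Thioredoxin reductase 1, from Txnrd1, is a selenoenzyme that keeps cytosolic thioredoxin reduced. Txnrd1 measured 1629, 1164 and 1736 in CUMS 1, 2 and 3, and 1403, 2063 and 1724 in CUMS 4, 5 and 6, against 1608, 1489 and 1246 in control 1, 2 and 3. The groups overlapped throughout, with log2 fold changes against control of 0.05 (SE 0.19) in CUMS 1–3 and 0.25 (SE 0.19) in CUMS 4–6 (adjusted p = 0.978 and 0.849 by limma). The other probe set of Txnrd1 ran from 653 to 908 and gave 0.02 (SE 0.16) in CUMS 1–3 and 0.11 (SE 0.16) in CUMS 4–6. Over the 9 rats the pair of probe sets had an r of 0.62 (exact permutation p = 0.0798, adjusted 0.12) and a rho of 0.58 (exact permutation p = 0.108, adjusted 0.162), with r = 0.56 without the 2 farthest rats.

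Sulfiredoxin, from Srxn1, reverses the overoxidation of peroxiredoxins. Srxn1 measured 455, 532 and 577 in CUMS 1, 2 and 3, and 527, 443 and 411 in CUMS 4, 5 and 6, against 483, 543 and 359 in control 1, 2 and 3. All 3 groups covered much the same range. The log2 fold change was 0.19 (SE 0.18, adjusted p = 0.889) in CUMS 1–3 and 0.01 (SE 0.18, adjusted p = 0.997) in CUMS 4–6 against control by limma. The further tested probe set of Srxn1, with signals of 80.9 to 146, had a mean below control in CUMS 1–3, by -0.26 (SE 0.27), and the probe sets did not follow each other over the rats, with r = 0.25 (exact permutation p = 0.51, adjusted 0.51), rho = 0.17 (exact permutation p = 0.678, adjusted 0.678) and r = -0.15 without the 2 farthest rats. The sign for this gene therefore depends on the probe set.

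The basal enzymes differed little. Cytosolic copper-zinc superoxide dismutase, from Sod1, had signals of 21711, 20901 and 19522 in CUMS 1, 2 and 3, and of 22494, 24662 and 24575 in CUMS 4, 5 and 6, against 21895, 22333 and 18840 in control 1, 2 and 3. In the deposited signals all 3 rats of CUMS 4–6 lay above all rats of both other groups. After quantile normalization CUMS 4, at a log2 signal of 14.40, lay below CUMS 1 at 14.43 and control 1 at 14.41. After median centring the separation remained. In CUMS 4–6 against control, Sod1 was the 1 member probe set of 13 whose groups did not overlap (11.6% of all probe sets), with a log2 fold change of 0.19 (SE 0.09, 95% confidence interval -0.02 to 0.40, adjusted p = 0.782 by limma). Between CUMS 1–3 and CUMS 4–6 it was -0.21 (SE 0.09, adjusted p = 0.9996). The means were 20711 ± 1107 in CUMS 1–3 and 23910 ± 1227 in CUMS 4–6, against 21023 ± 1903 in control (SD, n = 3 each).

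Glutathione peroxidase 1, from Gpx1, is the selenoenzyme that reduces hydrogen peroxide in cytosol and mitochondria. It measured 20273, 21888 and 19965 in CUMS 1, 2 and 3, and 22317, 22938 and 23081 in CUMS 4, 5 and 6, against 20764, 22542 and 19106 in control 1, 2 and 3. Every rat of CUMS 4–6 lay above every rat of CUMS 1–3, and control 2 lay between CUMS 4 and CUMS 5. Sod1 and Gpx1 were the 2 member probe sets of 13 without overlap in CUMS 1–3 against CUMS 4–6 (9.11% of all probe sets), and both were lower in CUMS 1–3. There the log2 fold change of Gpx1 was -0.14 (SE 0.09, adjusted p = 0.9996 by limma). These separations depended on the scaling. After quantile normalization both genes overlapped, Gpx1 with log2 signals of 14.37 in CUMS 6 and 14.39 in CUMS 3. After median centring Gpx1 overlapped, at 14.45 in CUMS 6 and 14.52 in CUMS 2, and Sod1 did not. No member was without overlap in CUMS 1–3 against control (11.6% of all) or in all CUMS against control (3.68% of all).

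Catalase, from Cat, breaks down hydrogen peroxide in peroxisomes. Cat measured 25664, 26267 and 20841 in CUMS 1, 2 and 3, and 26419, 25307 and 27056 in CUMS 4, 5 and 6, against 24205, 25821 and 19378 in control 1, 2 and 3. CUMS 3 and control 3 lay well below the other 7 rats, and the groups overlapped. The log2 fold change was 0.07 (SE 0.12) in CUMS 1–3 and 0.19 (SE 0.12) in CUMS 4–6 against control (adjusted p = 0.944 and 0.828 by limma).

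Sod2 encodes the manganese superoxide dismutase of the mitochondrial matrix. Its signal was 4417, 3851 and 4628 in CUMS 1, 2 and 3, and 3846, 4923 and 4688 in CUMS 4, 5 and 6, against 4379, 3738 and 4226 in control 1, 2 and 3. The highest rat exceeded the lowest 1.32-fold, and the log2 fold change was 0.06 (SE 0.12) in CUMS 1–3 and 0.12 (SE 0.12) in CUMS 4–6 against control (adjusted p = 0.947 and 0.904 by limma).

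Counted by the mean of log2 signals, 6 of the 10 genes were higher and 4 lower in CUMS 1–3 than in control, 8 higher and 2 lower in CUMS 4–6 than in control, and 3 higher and 7 lower in CUMS 1–3 than in CUMS 4–6. In all CUMS against control it was 8 higher and 2 lower, Nqo1 and Hmox1 being the lower ones. The median log2 fold change of the 10 genes was 0.05, 0.13 and 0.10 in CUMS 1–3, CUMS 4–6 and all CUMS against control, beside -0.01, -0.02 and -0.01 over all tested probe sets. Without control 3, 4 of the 10 genes were higher and 6 lower in CUMS 1–3 than in control. In CUMS 4–6 and in all CUMS it was then 7 higher and 3 lower. The medians of the 10 genes became -0.05, 0.09 and 0.01 in the same order. An exact permutation test over the 84 ways to split 6 and 3 rats gave p from 0.131 for Hmox1 to 0.595 for Srxn1 for all CUMS against control, two-sided, and 0.489 or above after Benjamini-Hochberg adjustment over the 10 genes. The rat means over the 10 genes, relative to control, ran from -0.06 to 0.02 in CUMS 1–3 and from -0.02 to 0.06 in CUMS 4–6, against -0.05 to 0.04 in control, since higher and lower genes offset each other.

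The members did not vary as a single block from rat to rat. Of the 45 pairs of genes, 19 had a positive and 26 a negative Pearson r of log2 signals over the 9 rats, 9 pairs reached an exact permutation p under 0.05 and 3 did so after Benjamini-Hochberg adjustment over the 45 pairs. None did so by Spearman's rho after adjustment, where the lowest was 0.059. The subunits Gclc and Gclm had r = 0.83 (exact permutation p = 0.00269, adjusted 0.0403) and rho = 0.78 (exact permutation p = 0.0172, adjusted 0.207). Their r was 0.83 without the 2 farthest rats and 0.83 after the group means were removed. In each pair the 2 farthest rats were those farthest from the median of the gene named first, whatever their value for the other gene. Nqo1 and Hmox1 had r = 0.77 (exact permutation p = 0.0166, adjusted 0.125) and rho = 0.73 (exact permutation p = 0.0311, adjusted 0.207), with r = 0.80 without the 2 farthest rats. Nqo1 ran against Gclc, with r = -0.71 (exact permutation p = 0.028, adjusted 0.165) and rho = -0.63 (exact permutation p = 0.076, adjusted 0.38), with r = -0.61 without the 2 farthest rats. The relations of Nqo1 did not pass the adjustment.

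Sod1 and Gpx1 had r = 0.88 (exact permutation p = 0.00101, adjusted 0.0403) and rho = 0.92 (exact permutation p = 0.00131, adjusted 0.059), with r = 0.77 without the 2 farthest rats. Cat and Gpx1 had r = 0.84 (exact permutation p = 0.0021, adjusted 0.0403) and rho = 0.75 (exact permutation p = 0.0255, adjusted 0.207), with r = 0.55 without the 2 farthest rats. Both relations depended on the scaling of the arrays. After quantile normalization r was 0.17 for Sod1 and Gpx1 and -0.53 for Cat and Gpx1, while r for Gclc and Gclm was 0.81. With the arrays centred on their medians instead, r was 0.94, 0.95 and 0.84 for these pairs in that order. Control 3, the array that stood apart, was the lowest of the 9 rats for Srxn1, Sod1, Cat and Gpx1.

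**Figure D3:**
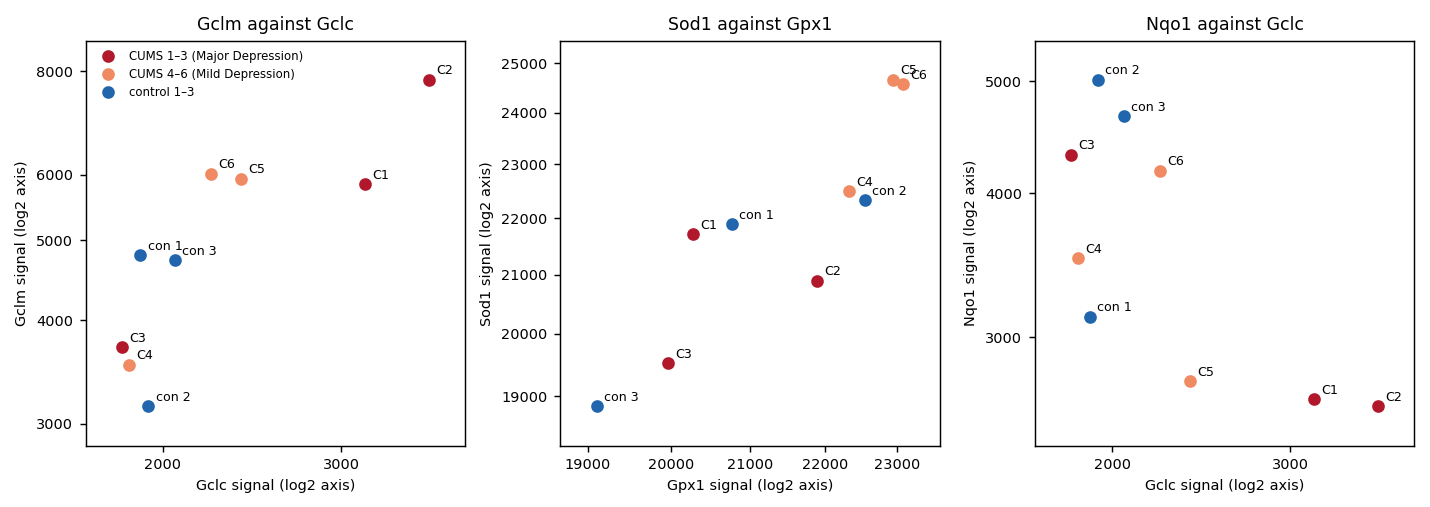
Signals of 9 rats for Gclm against Gclc, Sod1 against Gpx1 and Nqo1 against Gclc, on log2 axes, with each rat named (C for CUMS, con for control). CUMS 2 lies at the upper right for Gclc and Gclm, and CUMS 1 and CUMS 2 combine the highest Gclc with low Nqo1.

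The regulators of the pathway showed no called difference. Nfe2l2 had signals of 3600, 3732 and 4122 in CUMS 1, 2 and 3, and of 3611, 4879 and 3461 in CUMS 4, 5 and 6, against 4499, 3053 and 4100 in control 1, 2 and 3, a log2 fold change over all CUMS of 0.01 (SE 0.14, adjusted p = 0.99 by limma). The mRNA of Nfe2l2 does not report on the protein, whose stability KEAP1 sets. Keap1 gave 0.10 (SE 0.12, adjusted p = 0.888), or -0.00051 without control 3, and Bach1 was on the array but did not pass the filter on low signals. Of 10 tested regulators, 7 had a higher and 3 a lower mean in all CUMS than in control, with 1 higher and 0 lower at an unadjusted p under 0.05. Without control 3 it was 4 higher and 6 lower. The gene past that p in both was Mafg, a small MAF partner of NRF2, at 657, 675 and 770 in CUMS 1, 2 and 3 and 738, 641 and 603 in CUMS 4, 5 and 6, against 618, 444 and 492 in control 1, 2 and 3. Its log2 fold change was 0.40 (SE 0.14, adjusted p = 0.546). Gsk3b, a kinase that marks NRF2 for breakdown apart from KEAP1, gave -0.16 (SE 0.20, adjusted p = 0.886), or -0.26 without control 3.

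Of 26 further NRF2 target genes that were tested, 18 had a higher and 8 a lower mean in all CUMS than in control, with 3 higher and 1 lower at an unadjusted p under 0.05 and 0 called after adjustment. In CUMS 1–3 against control 16 were higher and 10 lower (2 and 0 at an unadjusted p under 0.05), and in CUMS 4–6 against control 21 were higher and 5 lower (7 and 1). Between CUMS 1–3 and CUMS 4–6, 6 were higher and 20 lower in CUMS 1–3 (0 and 4). Without control 3, 15 were higher and 11 lower in all CUMS (2 and 0), 13 and 13 in CUMS 1–3 (2 and 1) and 18 and 8 in CUMS 4–6 (4 and 0). Of all probe sets, 7.93% passed that p in all CUMS, 6.76% in CUMS 1–3 and 6.28% in CUMS 4–6 against control. Between CUMS 1–3 and CUMS 4–6 it was 2.85%. Without control 3 the shares against control were 5.64%, 5.52% and 5.17% in that order. The median log2 fold changes of the 26 genes, with all rats, were 0.06 in CUMS 1–3 and 0.18 in CUMS 4–6 against control. As a mean per rat relative to control, the list stood at -0.03 to 0.15 in CUMS 1–3 and at 0.18 to 0.21 in CUMS 4–6, against -0.05 to 0.03 in control, so that CUMS 4–6 did not overlap with either other group. The same was so for the thioredoxins, peroxiredoxins and sulfur repair genes below, a list that also holds Txn1. These list means come from the deposited signals only. Whether the separations hold under another scaling of the arrays, and how often other lists separate so, was not tested. The hepatocyte markers also had a higher mean in CUMS 4–6 than in control for 10 of 11 genes (7 of 11 without control 3), with a summed signal of 255963 to 293119 in CUMS 1–3 and 294274 to 322292 in CUMS 4–6, against 250473 to 300218 in control. The part of hepatocyte content in the values of the NRF2 target list was not tested.

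The gene with the smallest p in this list was Gsta3, for a glutathione S-transferase that conjugates electrophiles to glutathione. It measured 179, 249 and 334 in CUMS 1, 2 and 3, and 276, 387 and 415 in CUMS 4, 5 and 6, against 85.5, 93.9 and 95.6 in control 1, 2 and 3. All CUMS rats lay above all control rats. The log2 fold change was 1.43 (SE 0.25, adjusted p = 0.282) in CUMS 1–3, 1.95 (SE 0.25, adjusted p = 0.129) in CUMS 4–6 and 1.69 (SE 0.22, adjusted p = 0.109) in all CUMS against control by limma. The study reported this same probe set under the name Gsta5, as higher in CUMS rats. It also found Gsta5 higher in their livers by quantitative PCR. The alpha class of these enzymes holds near-identical genes, so which copy the probe set measured is uncertain. Ptgr1, for an NADPH-dependent prostaglandin and alkenal reductase, gave 0.64 (SE 0.22, adjusted p = 0.554) in all CUMS against control, and Abcc3, a basolateral exporter of conjugates, gave -1.37 (SE 0.48, adjusted p = 0.565). With control 3 left out the estimates were 1.72 for Gsta3, 0.41 for Ptgr1 and -0.93 for Abcc3.

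Among 21 tested genes of glutathione synthesis, recycling and peroxidation, 16 were higher and 5 lower in mean in all CUMS than in control, with 0 higher and 3 lower at an unadjusted p under 0.05. These were the secreted peroxidase Gpx3 at -0.83 (SE 0.35) and the endoplasmic reticulum peroxidases Gpx7 at -0.66 (SE 0.27) and Gpx8 at -0.72 (SE 0.27), with limma adjusted p values of 0.606, 0.595 and 0.578. In each of these genes the SD in control, 773, 179 and 124, exceeded those of both stressed groups. Without control 3 their log2 fold changes were -0.23, -0.28 and -0.34, none at an unadjusted p under 0.05, and 14 of the 21 genes were higher and 7 lower. Of 18 tested thioredoxins, peroxiredoxins and sulfur repair genes, 10 were higher and 8 lower, with none at an unadjusted p under 0.05, and the smallest p belonged to Txnip, an inhibitor of thioredoxin, at -0.26 (SE 0.12, adjusted p = 0.628). Msrb3, a methionine sulfoxide reductase, gave -0.25 (SE 0.13) and Txnrd3, a further thioredoxin reductase, gave 0.33 (SE 0.18). Without control 3, Txnip gave -0.20, Msrb3 -0.26 and Txnrd3 0.33.

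Among 11 other genes that make or handle superoxide, 5 were higher and 6 lower in mean in all CUMS than in control, with 0 higher and 3 lower at an unadjusted p under 0.05. Cyba and Cybb encode the membrane subunits of the phagocyte NADPH oxidase. Cyba measured 711, 496 and 911 in CUMS 1, 2 and 3, and 714, 601 and 945 in CUMS 4, 5 and 6, against 1404, 931 and 1485 in control 1, 2 and 3. All but CUMS 6 lay below every control rat, with a log2 fold change of -0.81 (SE 0.22, adjusted p = 0.467 by limma), or -0.68 without control 3. Cybb gave -0.76 (SE 0.28, adjusted p = 0.575), or -0.34 without control 3. The extracellular dismutase Sod3 gave -0.36 (SE 0.14, adjusted p = 0.595), or -0.47 without control 3. In the list without control 3, 4 genes were higher and 7 lower, 1 and 2 of them at an unadjusted p under 0.05 (5.64% of all probe sets). CUMS 2, CUMS 5 and CUMS 1, the rats with the lowest sum of Kupffer cell markers, were also the 3 lowest for Cyba, and the part of macrophage content was not tested.

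Of 7 genes of heme breakdown and transport 3 were higher and 4 lower, of 21 peroxisomal genes 18 were higher and 3 lower, and of 10 genes of selenoprotein synthesis 5 were higher and 5 lower in all CUMS than in control. Without control 3 they were 1 and 6, 10 and 11, and 3 and 7 genes, and without control 1 the heme genes were 5 and 2. At an unadjusted p under 0.05 these lists held 0, 1 and 1 genes, the peroxisomal fatty acid transporter Abcd3 at 0.34 (SE 0.13, adjusted p = 0.574) and the selenocysteine lyase Scly at 0.45 (SE 0.18, adjusted p = 0.595), both higher. Abcd3 gave 0.21 and Scly 0.30 without control 3, neither at an unadjusted p under 0.05. The heme transporter Slc48a1 gave -0.25 (SE 0.12, adjusted p = 0.636), and its 6 CUMS rats lay below all control rats, at 413 to 505 against 536 to 589. Blvrb, a biliverdin reductase, gave 0.20 (SE 0.13) and Por, which feeds electrons to heme oxygenase, gave 0.27 (SE 0.23), or -0.06 without control 3. Pex11a, for peroxisome division, gave 0.40 (SE 0.18) and Hsd17b4, of peroxisomal beta-oxidation, gave 0.15 (SE 0.08), or 0.10 without control 3. The selenoprotein Selenow gave -0.38 (SE 0.24), or -0.18 without control 3, and Trnau1ap, a partner of the selenocysteine tRNA, gave -0.14 (SE 0.10). Of the remaining marker lists in all CUMS against control, 5 of 8 endothelial genes were higher and 3 lower, 0 of 4 bile duct genes higher and 4 lower, 2 of 5 lymphocyte genes higher and 3 lower, and 2 of 4 erythroid genes higher and 2 lower in mean. Without control 3 the higher ones numbered 7, 1, 3 and 1 in the same order.

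**Figure D4:**
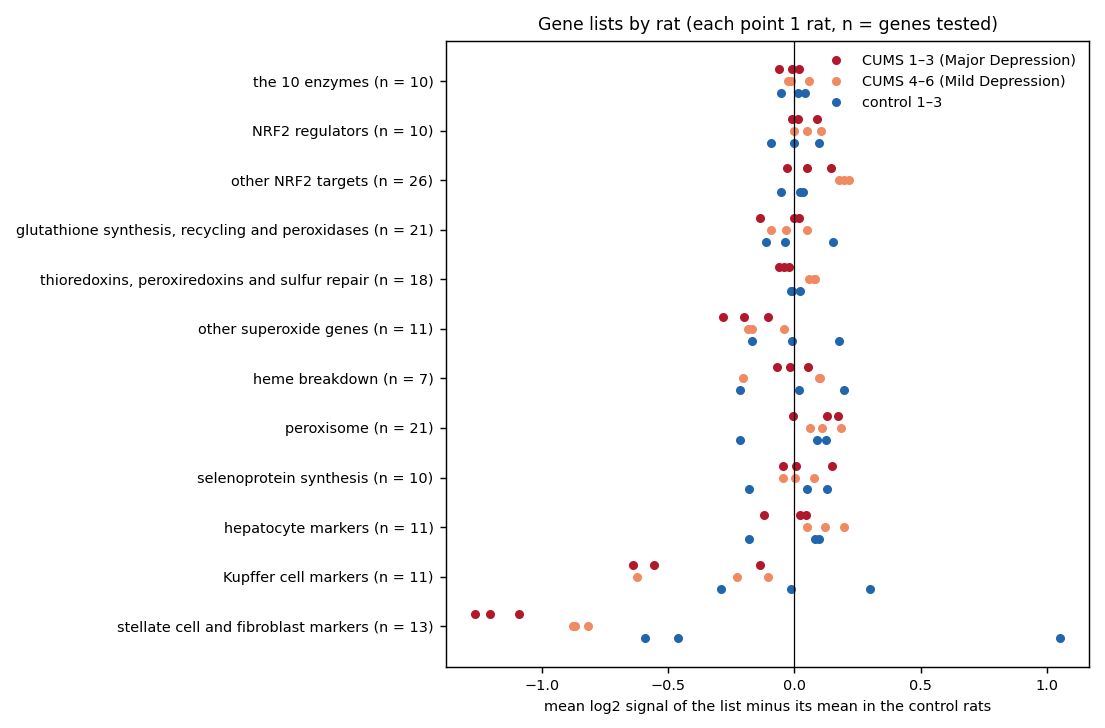
Mean log2 signal of each gene list minus its mean in the control rats, 1 point per rat, with CUMS 1–3, CUMS 4–6 and control from top to bottom within each list and n giving the genes tested. The 10 enzymes lie within 0.06 of the control mean in every rat. The further NRF2 targets and the thioredoxins, peroxiredoxins and sulfur repair genes lie highest in CUMS 4–6. Control 3 lies far to the right for stellate cell and fibroblast markers.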

How the data were processed

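Total RNA of whole liver was measured on Affymetrix rat arrays, with an array for each liver. The deposited intensities are linear MAS 5.0 signals that the authors scaled per array, and the software version is not given in the sources used here. The trimmed mean without the lowest and highest 2% of signals was 500.2 on every array. Without the array's 57 control probe sets, 586 signals under 1 were set to 1 and log2 was taken. The dimmest 40% of probe sets over the 9 arrays were not tested, which left 18625. Groups came from the symptom labels, and numbered titles were taken as separate rats, so p-values measure the spread between these samples. The 4 comparisons were fitted together with limma 3.58.1 (R 4.3.3) with variances following the signal and Benjamini-Hochberg adjustment, called under 0.05, and the script was tested on simulated data. The number of arrays limits the precision. MAS 5.0 scaling by this trimmed mean leaves out the brightest 2% of signals, but a change in many other bright genes can still shift the rest.

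Each gene is described by its probe set with the highest mean signal. Annotation gave 1 symbol to 20826 probe sets, several to 436 and none to 9780. Of each further list all genes tested were counted, and the 3 with the smallest unadjusted p in all CUMS against control were named, beside Nfe2l2, Keap1 and Bach1. The counts of every list at an unadjusted p under 0.05 stand beside 7.93% of all probe sets in all CUMS against control. Without control 3 that share was 5.64%. The members, lists and tests were chosen with earlier results of these data known. Alternatives covered normalization, offset, filter, variance trend, array weights, samples fitted, probe sets per gene, ANOVA, the replicate block and leaving out each rat, which for the further lists and for shares of all probe sets was added after the data were seen.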

Additional observations from a re-analysis of the deposited data

Results flagged for a closer look

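Among the 6 CUMS rats, Cat was lowest in CUMS 3, at a signal of 20841, far enough from the next rat to pass Dixon's test at the 95% level. The other 5 CUMS rats had 25307 to 27056, and control 1, 2 and 3 had 24205, 25821 and 19378. Chance gives such a value in about 1 of 20 groups, and 10 genes were examined.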

How the results depend on the processing

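No member probe set was called under any alternative, each rat left out included. The 3 control livers and 3 livers per label limit what can be seen, and the intervals of Hmox1 in CUMS 1–3 and in CUMS 4–6 against control each span more than 2 units of log2.
The count of member probe sets at an unadjusted p under 0.05 in CUMS 1–3 against control was 1. It was 0 with quantile normalization, with only the groups compared, without a variance trend and with ANOVA, and 2 with array weights. Same-numbered rats of CUMS 1–3 and control had correlations of 0.003, -0.05 and 0.14 in their deviations from the group means. With 3 rats per group these values cannot settle whether replicate numbers pair the rats, and the labels do not say. With the replicate block the count was 3. In all CUMS against control it was 1 with median centring, without a filter and with only the groups compared, and in CUMS 1–3 against CUMS 4–6 it was 1 with the upper 40% of signals, with only the groups compared and with array weights and 2 with ANOVA, where otherwise it was 0. Without each rat in turn it ran from 0 to 5 in CUMS 1–3 against control (5 without CUMS 3), from 0 to 1 in CUMS 4–6 against control, from 0 to 5 in all CUMS against control (5 without CUMS 3) and from 0 to 2 in CUMS 1–3 against CUMS 4–6 (2 without CUMS 3). Of all probe sets, 4.39% to 8.03%, 4.37% to 8.13%, 5.64% to 9.28% and 2.63% to 3.26% passed in the same order. Under the other settings the share of all probe sets was not counted, so those counts of members have no such value beside them.
Some log2 fold changes near 0 turned sign. In CUMS 1–3 against control, median centring gave 0.030 for Sod1 and 0.044 for Gpx1. The mean over probe sets gave Srxn1 -0.037 in CUMS 1–3 and -0.014 in all CUMS against control and -0.045 in CUMS 1–3 against CUMS 4–6. Array weights gave Srxn1 -0.10 in CUMS 4–6 and -0.010 in all CUMS against control, and gave Hmox1 0.018 in CUMS 1–3 against CUMS 4–6. Quantile normalization gave Gpx1 -0.0023 in CUMS 4–6 and -0.020 in all CUMS against control, and gave Cat 0.011 in CUMS 1–3 against CUMS 4–6. With each rat left out, CUMS 1–3 against control ran from -0.064 to 0.22 for Txnrd1, from -0.096 to 0.027 for Sod1, from -0.0055 to 0.14 for Sod2, from -0.051 to 0.18 for Cat and from -0.064 to 0.055 for Gpx1. Srxn1 ran from -0.16 to 0.14 in CUMS 4–6 and from -0.072 to 0.23 in all CUMS against control. In CUMS 1–3 against CUMS 4–6, Hmox1 ran from -0.50 to 0.39, Gclm from -0.11 to 0.43 and Sod2 from -0.16 to 0.019. The other 249 member fold changes with a rat left out and 399 under other settings kept their sign. The cause of these turns was not tested. Scaling moved the median of all probe sets by less than 0.1.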
